A study of Mus musculus with 10 samples.

Results

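Complement is a chain of secreted proteins that tag a surface for removal, together with the receptors through which cells respond to those tags. The genes described here, 8 in all, were measured in single cells of the mouse medial prefrontal cortex: the 3 chains of C1q (C1qa, C1qb and C1qc), the central components C3 and C4b, and the receptors C3ar1, C5ar1 and Itgam. They were picked by symbol, with earlier results of these data known, and are 8 of the 30406 genes that all the deposited matrices share. In the brain, C1q made by microglia can bind synapses and cells and starts the classical pathway. That pathway cleaves C4 and then C3, whose fragments stay on the surface as tags or leave as small signalling peptides. C3ar1 and C5ar1 are receptors for the peptides of C3 and C5, and Itgam (CD11b) pairs with Itgb2 to form complement receptor 3, which binds C3 fragments and lets phagocytes take up tagged material.

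The study compared male C57BL/6N mice, over 2 months old, of rank 1 (dominant) with those of rank 4 (subordinate), ranks that came from the tube test, a contest in which paired mice meet head-on in a narrow tube. There were 5 libraries of rank 1 and 5 of rank 4, each made from punched tissue pooled from 2 or 3 mice that was taken the day after the final contest. The labels name no transgene, virus or drug in any group, so the mice of both ranks share strain, sex, tissue and preparation, and there is no unranked group. Tissue was digested with papain at 37 °C for 60 min and triturated, a step in which microglia can respond before they are lysed. The total was 4442750 to 29278466 UMIs (unique molecular identifiers, each counting 1 captured RNA molecule) per library, and 46052 cells were kept of 64937 barcodes. Between 1448 and 12657 cells were kept per library, with medians of 1332 to 2677 UMIs per cell. Of the 45 pairs of libraries, 32 shared cell barcodes, at most 104 of them or 1.70% of the smaller library, and 0 shared barcodes had the same counts.

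Cells were clustered without any complement gene and named from marker genes. Since the same markers named the clusters, their levels are a description: all 9 microglial and all 8 perivascular macrophage markers were highest in their own class, and of the markers of all 12 classes Nxph1, listed for inhibitory neurons, was highest in another, the oligodendrocyte precursors. The classes used were 3602 microglia, 112 perivascular macrophages (the resident macrophages along vessels), 9033 astrocytes, 3198 oligodendrocyte precursors, 335 committed precursors, 2309 oligodendrocytes, 4190 endothelial cells, 1591 pericytes, 520 smooth muscle cells, 106 fibroblasts, 13849 excitatory neurons and 2114 inhibitory neurons. Levels are CPM, the UMIs of a gene as parts per 1000000 UMIs of the class in 1 library, given as mean ± SD over libraries. A library entered with at least 20 cells of a class, or 5 for perivascular macrophages and fibroblasts. For perivascular macrophages that left 8 libraries, without rank 1 replicates 1 and 4. UMIs are not scaled by gene length, so levels are compared between cells and samples and not between genes. Differences are log2 fold changes from edgeR's quasi-likelihood test on summed UMIs, scaled by the trimmed mean of M-values (TMM), with standard errors (SE) and Benjamini-Hochberg adjustment over all genes tested.

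One property of the libraries precedes the results. In microglia, replicates 2 and 3 of both ranks stood apart from replicates 1, 4 and 5 in the summed level of 17 genes known to respond to tissue dissociation: 26440 to 33675 CPM against 1797 to 11110 CPM. The cytokine genes Ccl3 and Ccl4 of that list were at 6165 to 7876 and 10348 to 13058 CPM in those 4 libraries, and at 61.2 to 784 and 109.3 to 1499 CPM in the other 6. Without these genes the sum was 8994 to 13675 CPM against 1455 to 8827 CPM. Of the 17 genes, 5 stood above the other libraries without overlap (Ccl3, Ccl4, Junb, Dusp1 and Hspa1a) and 12 overlapped. Among those that overlapped, the cytokine gene Il1b was at 60.4 to 105.6 CPM against 10.9 to 208.3 CPM and the early response gene Fos at 57.1 to 193.8 CPM against 84.3 to 770.02 CPM. The division is given below for the microglial level of each library and for C3ar1 and C5ar1. Comparisons of C1q, Itgam and other complement genes between macrophages and microglia are not split by it.

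The 3 C1q genes lie together on chromosome 4 (GRCm38, GENCODE M21), all on the minus strand: C1qb at 136880129 to 136886187, C1qc at 136889804 to 136893065 and C1qa at 136895917 to 136898803, with gaps of 3616 and 2851 bases between neighbours. C3 lies on chromosome 17 at 57203970 to 57228136 and C4b on the same chromosome at 34728380 to 34743882, both on the minus strand. C3ar1 is on chromosome 6 at 122847138 to 122856161 (minus), C5ar1 on chromosome 7 at 16246743 to 16259540 (minus) and Itgam on chromosome 7 at 128062640 to 128118491 (plus). The exons of Itgam overlap those of Gm49368 on the same strand. RefSeq promoter windows (GRCm38.p6) were found for 6 of the 8 genes, not for C1qa and C4b. These stretches before the start site are shown for 3 genes high in microglia, C1qb, C3ar1 and Itgam, as the regulatory sequence nearest to genes whose levels are described below. They cover chr4:136886201-136886450 (minus strand), chr6:122856162-122856407 (minus strand) and chr7:128062390-128062639 (plus strand), written 5′ to 3′ along each gene, and the capitals mark matches to the core motif of PU.1, a transcription factor of macrophages, or to the motif of AP-1. Positions are counted from the RefSeq start, which for C1qb and C3ar1 is not the GENCODE start given above. For C3ar1 the 4 bases next to the RefSeq start are annotated as exon and are not shown.
C1qb: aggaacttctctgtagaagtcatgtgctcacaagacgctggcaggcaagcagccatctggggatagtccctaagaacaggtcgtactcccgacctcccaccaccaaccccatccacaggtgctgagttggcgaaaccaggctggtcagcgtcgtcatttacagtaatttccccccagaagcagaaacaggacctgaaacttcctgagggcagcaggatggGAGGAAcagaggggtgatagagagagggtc
C3ar1: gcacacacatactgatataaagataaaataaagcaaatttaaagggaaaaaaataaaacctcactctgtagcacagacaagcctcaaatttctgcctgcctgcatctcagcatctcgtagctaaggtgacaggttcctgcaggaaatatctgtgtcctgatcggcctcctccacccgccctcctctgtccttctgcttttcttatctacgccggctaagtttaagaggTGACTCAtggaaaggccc
Itgam: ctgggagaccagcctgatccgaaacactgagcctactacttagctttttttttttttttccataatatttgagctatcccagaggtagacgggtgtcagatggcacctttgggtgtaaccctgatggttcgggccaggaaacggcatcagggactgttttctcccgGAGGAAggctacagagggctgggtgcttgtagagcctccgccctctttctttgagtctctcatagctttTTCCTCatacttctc
The C1qb window held GAGGAA, the PU.1 core, 30 to 25 bases before the start. Itgam held it at 84 to 79 bases on its own strand and at 15 to 10 bases on the other strand, where it reads TTCCTC. C3ar1 held TGANTCA, the AP-1 motif, 22 to 16 bases before the RefSeq start. Searched on both strands, GAGGAA was in 23.3% of 32851 mouse windows of the same length and TGANTCA in 6.75%, and the interferon-stimulated element, in 2.98% of windows, was in none of the 6. Of the windows not shown, that of C1qc held GAGGAA 193 to 188 bases before its start on the other strand, and those of C3 and C5ar1 held none of the 3 motifs.

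C1q was a microglial signal with a second, smaller source in perivascular macrophages. C1qa averaged 6366 ± 1309 CPM in microglia (n = 10 libraries), C1qb 7241 ± 2561 and C1qc 5760 ± 2853. In perivascular macrophages (n = 8) the same genes averaged 3944 ± 1320, 3772 ± 902 and 3785 ± 1723 CPM, and in each of the other 10 classes they averaged between 30.9 and 112.2 CPM. Against excitatory neurons, microglia were higher by 8.27 on the log2 scale for C1qa, 8.0 for C1qb and 8.26 for C1qc. In that comparison 6 of 7 members tested passed, all higher in microglia, where 71.1% of all 10956 genes passed and 32.4% were higher in microglia.

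Nearly every microglial cell carried C1q transcripts. A C1qa UMI was found in 98.1% of microglia (median 1271 UMIs per cell), C1qb in 96.6% and C1qc in 94.1%, against 14.2%, 15% and 8.38% of excitatory neurons (median 2215 UMIs). With every cell thinned to 1000 UMIs, and 1105 microglia and 2076 excitatory neurons left out as shallower, C1qa was found in 98.1% and 6.35%. All 3 chains were found together in 91.1% of microglia and in 90.2% of perivascular macrophages. They were found together in 0.924% of excitatory neurons, and 13 of the 3602 microglia, or 0.361%, held none of the chains. Microglia were 7.82% of the kept cells and held 80.0% of all C1qa UMIs, 80.5% of C1qb UMIs and 83.1% of C1qc UMIs. The neighbours in the order of levels below perivascular macrophages did not differ beyond their spread for C1qb: pericytes at 112.2 CPM, oligodendrocytes at 98.8, endothelial cells at 90.2, astrocytes at 84.5 and oligodendrocyte precursors at 80.6.

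**Figure D1:**
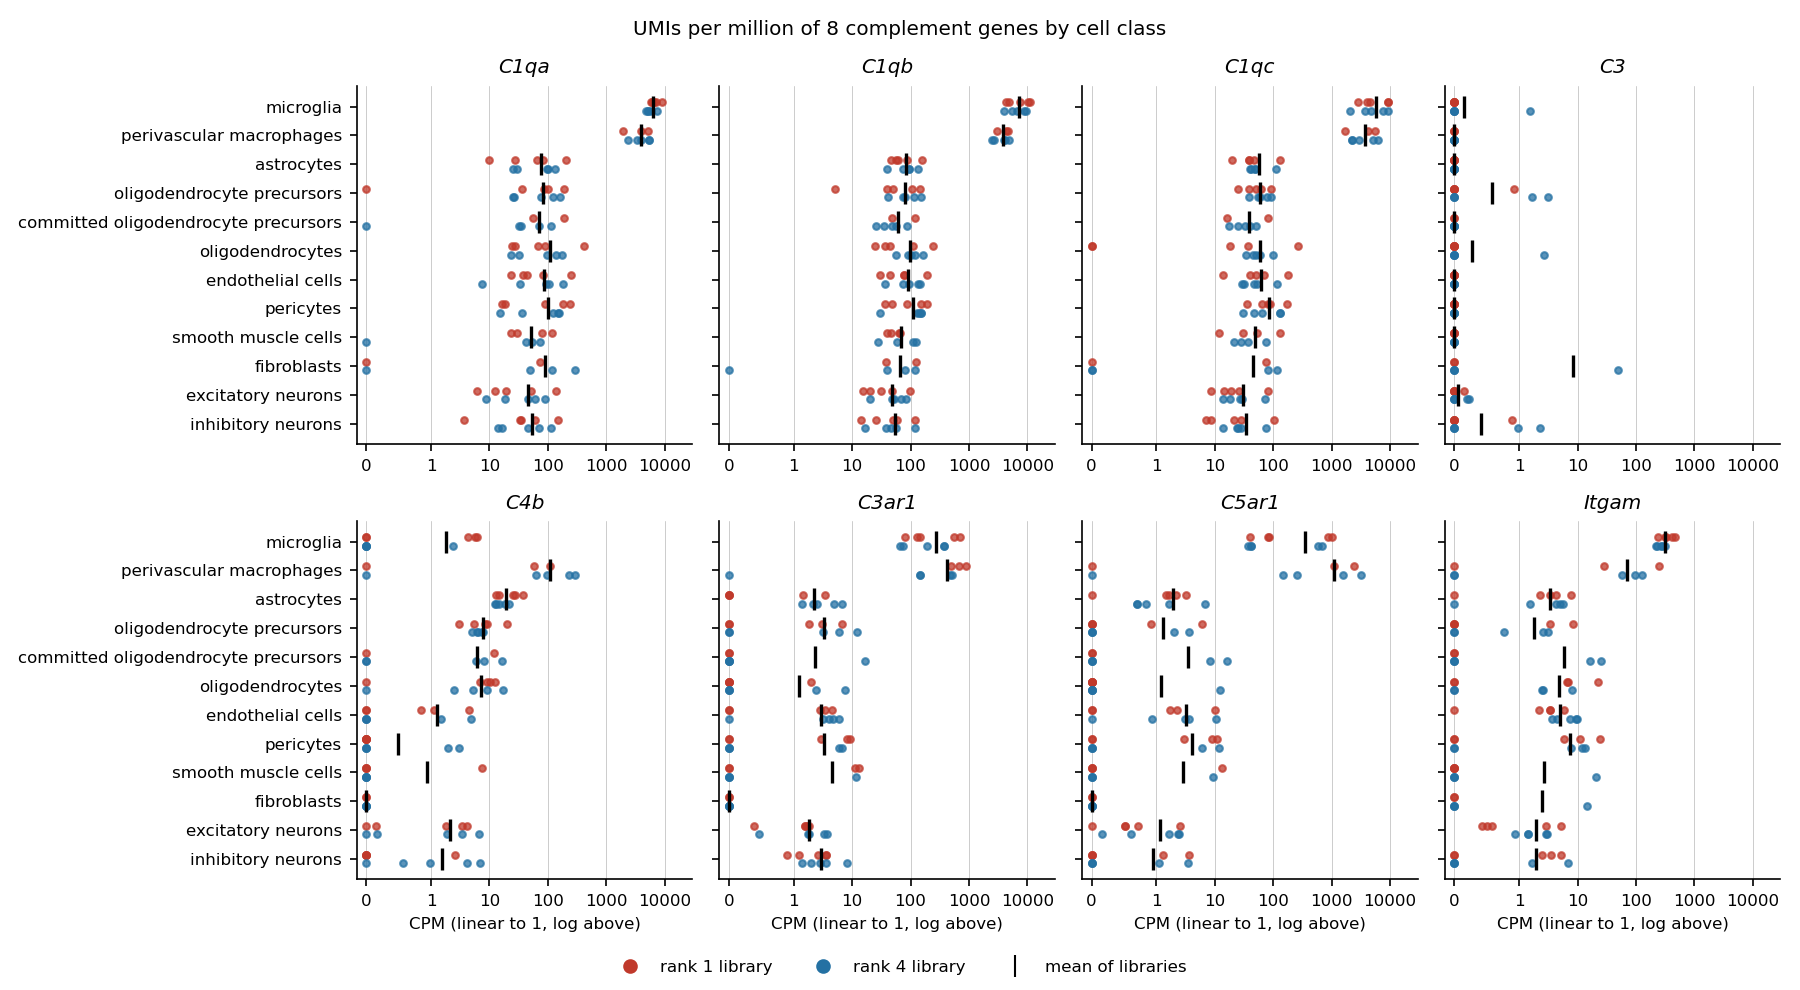
Level of each of the 8 genes in CPM (horizontal, linear to 1 and logarithmic above) in 12 cell classes (vertical); each point is 1 library, red for rank 1 and blue for rank 4, and black ticks are the means over libraries. The C1q chains, C3ar1, C5ar1 and Itgam sit highest in microglia and perivascular macrophages, C4b in perivascular macrophages and astrocytes, and C3 averages at most 8.38 CPM, in fibroblasts.

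Perivascular macrophages carried less C1qa and C1qb than the microglia of the same libraries, on both scales used. C1qa was lower in the macrophages in 7 of 8 libraries, C1qb in 8 of 8 and C1qc in 7 of 8. With TMM scaling they fell by 1.96 (SE 0.278), 2.16 (SE 0.270) and 1.74 (SE 0.265) on the log2 scale, adjusted p at most 7.3e-08. Between these classes, however, TMM also set the median of all genes at -1.11, and 26.6% of genes passed, 171 (1.56%) higher and 2739 (25%) lower in macrophages. Scaled by total UMIs, the median of all genes was -0.26 and 5.28% passed, with 331 genes (3.02%) higher and 248 (2.26%) lower. On that scale C1qa was lower by 0.79 (adjusted p = 0.045), C1qb by 1.02 (adjusted p = 0.0014) and C1qc by 0.60, which no longer passed (adjusted p = 0.17). DESeq2 gave a difference of -0.76 for C1qa, adjusted p = 0.097, and -0.58 for C1qc, adjusted p = 0.25.

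The low C1q signal in excitatory neurons varied between libraries in its chain proportions much as that of the microglia did. Among the UMIs of all 3 chains, the share of C1qa ranged from 21.9% to 44.4% over the microglia of the 10 libraries and from 17.1% to 43.4% over their excitatory neurons. Across the 10 libraries the shares in the 2 classes were correlated at r = 0.976 for C1qa, 0.856 for C1qb and 0.951 for C1qc; both classes come from the same suspensions, and the 3 shares sum to the whole, so this is a description. The match was not complete: the C1qb share was higher in excitatory neurons in 10 of 10 libraries, by a median of 4.74 percentage points. The C1qb shares of astrocytes, endothelial cells and inhibitory neurons followed those of microglia less closely, at r = 0.636, 0.600 and 0.510. In excitatory neurons the C1q level was 0.526% to 0.749% of the microglial level, as medians over libraries. Other microglial genes stood on both sides of that range: Gpr34 at 0.398%, Cx3cr1 0.482%, Csf1r 0.512%, Ctss 0.515%, P2ry12 0.532%, Tmem119 0.602%, Siglech 0.626%, Trem2 0.710%, Tyrobp 1.14% and Cst3 1.56%. The range over libraries was wide for each chain, 0.0849% to 2.09% for C1qa. Free RNA in the suspension gives such UMIs in cells that do not make the gene, and how much of the C1q in neurons came from it was not tested.

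**Figure D2:**
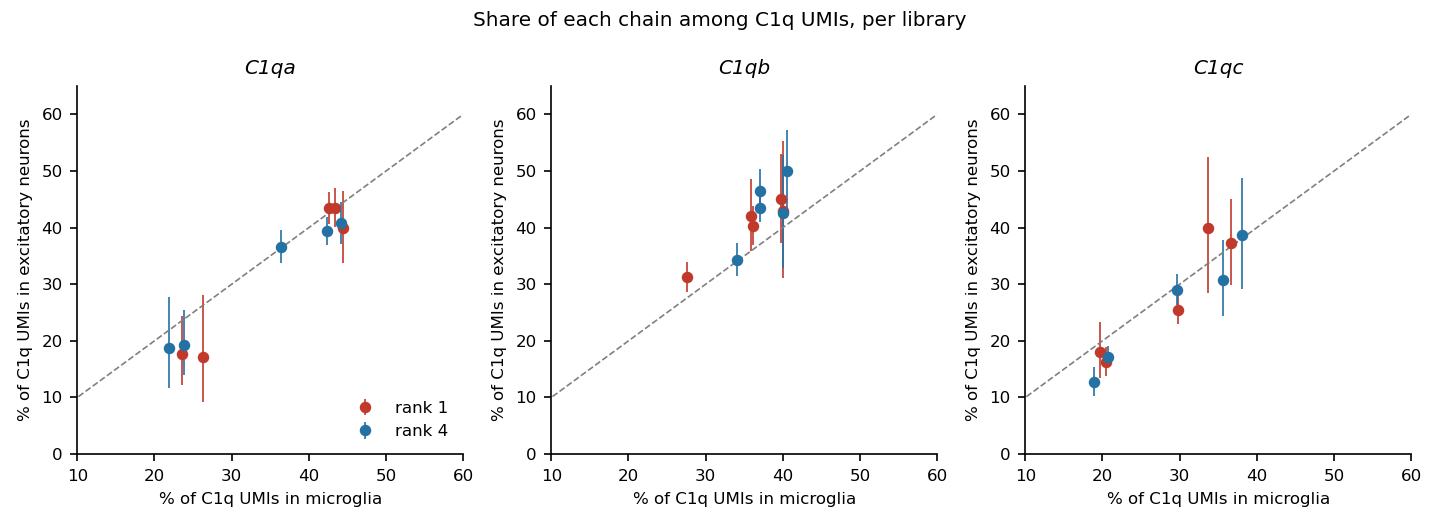
Share of each C1q chain among the UMIs of all 3 chains, in percent, in excitatory neurons (vertical, bars are 95% exact binomial intervals that cover counting error) against microglia of the same library (horizontal). Each point is a library, red for rank 1 and blue for rank 4, and the dashed line marks equal shares; points follow the line, with C1qb above it in 10 of 10 libraries.

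Astrocytes and endothelial cells held more C1q signal per UMI than excitatory neurons. In astrocytes C1qa averaged 77.6 ± 60.0 CPM against 45.1 ± 42.6 in excitatory neurons, C1qb 84.5 ± 37.8 against 48.5 ± 28.5, and C1qc 56.5 ± 35.6 against 30.9 ± 24.9. Between astrocytes and excitatory neurons 6 of 7 members passed, all higher in astrocytes, where 74.3% of all genes passed and 38.9% were higher. Endothelial cells were higher than excitatory neurons by 1.21 for C1qa (SE 0.263), 1.15 for C1qb (SE 0.250) and 1.3 for C1qc (SE 0.260), where 75.6% of genes passed and 37.2% were higher. Per cell the unthinned shares were alike. A C1qa UMI was found in 14.8% of astrocytes, 14.0% of endothelial cells and 14.2% of excitatory neurons. Their median UMIs per cell were 1501, 1208 and 2215, so the neurons reached that share with more UMIs per cell. After thinning the shares were 9.47%, 9.86% and 6.35%. The summed markers of microglia in astrocytes were 147.8 to 574 CPM in rank 1 and 182.6 to 327 CPM in rank 4, and their part in the C1q level was not tested.

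C3, the protein on which all complement routes meet, was all but missing from these cells. It gave 21 UMIs in 46052 kept cells. Of these, 6 were in inhibitory neurons, 4 in excitatory neurons, 4 in oligodendrocyte precursors, 2 in fibroblasts, 1 in microglia and 1 in oligodendrocytes, and the others in cells given no class. In fibroblasts both UMIs came from 1 library and gave a mean of 8.38 ± 20.5 CPM (SD, n = 6). Astrocytes held 0 of 16410235 UMIs, which allows a level of up to 0.183 CPM (3 counts), endothelial cells 0, which allows 0.427 CPM, and perivascular macrophages 0, which allows 17.3 CPM. No rank comparison or fold was made for C3 at this depth. These limits cover counting error only.

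C4b, the mouse C4 gene of the classical pathway, had another distribution: over all libraries together, astrocytes held most of its UMIs. Of its UMIs in kept cells, 61.2% were in astrocytes, 12.7% in excitatory neurons, 8.32% in oligodendrocyte precursors, 4.95% in oligodendrocytes and 3.56% in perivascular macrophages. These shares pool libraries with different gene lists. In the 4 libraries whose list holds the neighbouring gene C4a, astrocytes held 175 of 221 C4b UMIs and excitatory neurons 2. In the 6 libraries whose list lacks it, astrocytes held 134 and excitatory neurons 62. The level per UMI was highest in perivascular macrophages, 107 ± 106 CPM (n = 8, 18 UMIs in all), then astrocytes, 19.5 ± 8.07 CPM (n = 10, 309 UMIs). Oligodendrocyte precursors stood at 7.84 ± 4.65, oligodendrocytes at 7.22 ± 5.51 and microglia at 1.83 ± 2.55 CPM.

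In the macrophages C4b was found at 0, 56.8 and 110.8 CPM in the 3 rank 1 libraries and at 0, 63.2, 96.4, 231.6 and 295.4 CPM in the 5 of rank 4. There were 2 libraries with none, and the highest 2 values rest on 8 and 2 UMIs. The macrophages exceeded microglia by 5.52 (SE 0.802, adjusted p = 2.4e-08), and the level was higher in 6 of 8 libraries and lower in 0. Against astrocytes they were higher by 1.46 (SE 0.557, adjusted p = 0.027), where 42.9% of genes passed and 7.21% were higher. Leaving out rank 1 replicate 2 ended that call (1.38, adjusted p = 0.060), as did leaving out rank 4 replicate 1 (0.81, adjusted p = 0.30), 3 (1.27, adjusted p = 0.10) or 4 (1.23, adjusted p = 0.078).

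Astrocytes were higher in C4b than oligodendrocyte precursors by 1.89 (SE 0.345, adjusted p = 1.6e-06), where 43.2% of genes passed and 23.7% were higher. They were higher than oligodendrocytes by 1.33 (SE 0.403, adjusted p = 0.0042), where 43.2% passed and 28.2% were higher. The second of these calls was lost without rank 1 replicate 5 (1.04, adjusted p = 0.053). A C4b UMI was found in 279 of 9033 astrocytes, 3.09%, in 9.82% of the 112 perivascular macrophages and in 0.455% of excitatory neurons. After thinning to 1000 UMIs the astrocyte share was 1.92% and the neuronal share 0.144%.

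The neuronal C4b signal differed between libraries written with different gene lists. In the 6 libraries of replicates 1 to 3, whose list lacks the neighbouring gene C4a, excitatory neurons had C4b at 1.80 to 6.51 CPM (62 UMIs). In the 4 libraries of replicates 4 and 5, whose list holds C4a, they had 0 to 0.159 CPM (2 UMIs), and the ranges did not overlap. There C4a gave 56 UMIs in excitatory neurons and 2 in astrocytes, while C4b gave 2 and 175. In astrocytes C4b was at 12.3 to 24.9 CPM without C4a in the list and 14.3 to 36.9 CPM with it. Of the 91-base words of the C4b transcript, 18.6% also occur in C4a, whereas the 3 C1q transcripts share none with each other. Whether C4b reads of replicates 1 to 3 include reads from C4a was not tested, and the gene list and the replicate number cannot be told apart.

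Transcripts of the 2 peptide receptors were found in the same 2 classes as C1q, unevenly over libraries. C3ar1 averaged 270.1 ± 224 CPM in microglia (n = 10) and 416 ± 297 in perivascular macrophages (n = 8), and at most 4.53 CPM in any other class. C5ar1 averaged 351 ± 399 CPM in microglia and 1089 ± 1224 in perivascular macrophages, and at most 4.09 CPM elsewhere. A C3ar1 UMI was found in 21.5% of microglia and 42.0% of perivascular macrophages, and in 0.520% of excitatory neurons. For C5ar1 the shares were 17.2%, 58.0% and 0.274%. These shares pool libraries in different proportions, since replicates 2 and 3 gave 63 of the 112 macrophages and 819 of the 3602 microglia. Within replicates 2 and 3, C3ar1 was found in 42.9% of microglia and 58.7% of macrophages, and C5ar1 in 50.9% and 88.9%. Within replicates 1, 4 and 5, C3ar1 was found in 15.3% of microglia and 20.4% of macrophages, and C5ar1 in 7.29% and 18.4%. Microglia held 78.3% of C3ar1 UMIs and 76.0% of C5ar1 UMIs, and the 112 perivascular macrophages held 14.2% of the latter.

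In the macrophages C5ar1 was at 0, 1108 and 2443 CPM in the 3 rank 1 libraries and at 0, 144.7, 252.8, 1567 and 3201 CPM in the 5 of rank 4. The 4 high libraries were replicates 2 and 3, at 1108 to 3201 CPM against 0 to 252.8 in the other 4. The level was higher in macrophages than in microglia in 6 of 8 libraries for C5ar1 and likewise in 6 of 8 for C3ar1. C5ar1 differed by 0.54 with TMM (adjusted p = 0.12) and by 1.63 with total UMIs (SE 0.246, adjusted p = 1.2e-07), and DESeq2 gave 1.62 (adjusted p = 0.0060). The difference for C3ar1 was -0.42 with TMM (adjusted p = 0.25) and 0.60 with total UMIs (adjusted p = 0.32), so neither direction passed in those fits.

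Itgam, the phagocytic receptor chain, was lower in perivascular macrophages than in microglia. It averaged 309.7 ± 81.9 CPM in microglia and 69.2 ± 85.4 in perivascular macrophages, where 3 of 8 libraries had none. It was lower in the macrophages of 8 of 8 libraries, by 2.95 on the log2 scale (SE 0.401, adjusted p = 2.4e-09), and by 2.00 with total UMIs (adjusted p = 3.5e-04). An Itgam UMI was found in 35.0% of microglia, 9.82% of perivascular macrophages and 0.715% of excitatory neurons. Its partner Itgb2 averaged 193.4 CPM in microglia and 122.0 in perivascular macrophages, a difference of -1.54 with TMM (adjusted p = 5.9e-04) and -0.60 with total UMIs (adjusted p = 0.52). The overlapping Gm49368, which is in the list of replicates 1 to 3, held 0 to 15 UMIs per library in microglia beside 42 to 467 of Itgam.

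Of 21 other complement genes tested between these macrophages and microglia, 3 were higher and 3 lower with TMM. Of all genes in that fit 26.6% passed, 1.56% higher and 25% lower in macrophages. Cfp, which encodes properdin, a stabiliser of the C3-cleaving enzyme, was higher by 5.10, the collectin Colec12 by 5.52 and Cd93 by 4.05. Csmd3, an inhibitor-like membrane protein, was lower by 9.83, with 0 UMIs in the macrophages, a fitted value that is no bound. Clu (clusterin) was lower by 1.21 and Itgb2 by the value above. The median over those 21 genes was -1.21 with TMM, beside -1.11 over all genes tested. It was -0.41 with total UMIs and 0.58 in DESeq2. With total UMIs the 3 higher genes and Csmd3 passed, and Clu (-0.41, adjusted p = 0.78) and Itgb2 did not. DESeq2 gave 5 higher and 1 lower. Among the higher were the protease gene C1s1 and the inhibitor gene Serping1, which averaged 0 CPM in these macrophages.

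The microglial levels of 4 of the 6 genes tested in microglia differed among the replicate numbers, where 48% of all 7609 genes passed. Replicates 1 to 5 of rank 1 had C5ar1 at 82.0, 880.0, 1030.4, 84.3 and 39.3 CPM, and those of rank 4 at 41.4, 673, 596, 37.3 and 41.1 CPM. In both ranks replicates 2 and 3 were the high ones, at 596 to 1030.4 CPM against 37.3 to 84.3 in the other 6 libraries, a ratio of means of 14.7. C3ar1 was at 79.8, 560.0, 701, 144.5 and 129.6 CPM in rank 1 and at 66.5, 376.9, 378.9, 74.6 and 189.1 CPM in rank 4. Again replicates 2 and 3 did not overlap the others, at a ratio of 4.42. The same held for C1qc, at 4627, 9440, 9257, 4057 and 2806 CPM in rank 1 and 4740, 9212, 7697, 2083 and 3677 CPM in rank 4 (ratio 2.43), and for C1qb (ratio 1.82).

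C1qb was at 4294, 10246, 11001, 7403 and 4962 CPM in rank 1 and at 5437, 9675, 8752, 4072 and 6571 CPM in rank 4. C1qa was at 6615, 6057, 7226, 9167 and 5961 CPM in rank 1 and at 5808, 5298, 5158, 4855 and 7514 CPM in rank 4. Itgam was at 419, 240.0, 317, 469.5 and 332 CPM in rank 1 and at 272, 285, 226, 218 and 319 CPM in rank 4. For C1qa and Itgam, replicates 2 and 3 lay within the range of the others. In an edgeR test of differences among the 5 replicate numbers, added after these levels were seen, C5ar1 (F = 95.6, adjusted p = 1.5e-10), C3ar1 (F = 34.8, adjusted p = 2.6e-07), C1qc (F = 11.8, adjusted p = 2.5e-04) and C1qb (F = 6.06, adjusted p = 0.0068) passed. C1qa (adjusted p = 0.80) and Itgam (adjusted p = 0.82) did not. Of 13 other complement genes tested 9 passed: Itgb2, the partner of Itgam (F = 16.0, adjusted p = 4.3e-05), the receptor gene C5ar2, Clu, and Csmd1, Csmd2, Csmd3, Sez6, Sez6l and Sez6l2.

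These differences moved with the summed level of the dissociation genes given above, and their part was not tested. They also moved with other microglial genes: a list of 11 summed to 109376 to 134895 CPM in replicates 2 and 3 and to 40609 to 75466 CPM in the others, a ratio of means of 1.99. Cst3 alone was 57.4% to 75.01% of that sum, and the other 10 summed to 31250 to 41201 CPM against 14946 to 29440 CPM, a ratio of 1.81. Of the 11, 4 stood above the other libraries without overlap, Cst3 (ratio 2.09), Ctss (2.95), P2ry12 (2.88) and Tyrobp (2.2). Cx3cr1 stood below them, at 592 to 684 against 1548 to 2654 CPM, and the other 6 overlapped. Markers of monocytes and dendritic cells summed to at most 10.5 CPM in the microglia of any library. Those of excitatory neurons summed to 85.7 to 956 CPM in rank 1 and 59.2 to 1175 CPM in rank 4. Erythroid markers summed to 232 to 3556 CPM in rank 1 and 188 to 8079 CPM in rank 4. The part of such RNA in the differences among replicate numbers was not tested. Each of the 8 clusters that make up the microglia held cells of both sets of libraries, with replicates 2 and 3 giving 4.76% to 41.8% of a cluster. Genes were scaled within each library before clustering, which favours mixing of libraries, so this does not show that their cell states are alike. The labels do not say what a replicate number shares. In perivascular macrophages, C1qb and C1qc were likewise at 4169 to 4821 and 4232 to 6178 CPM in replicates 2 and 3, above 2511 to 3982 and 1714 to 3010 CPM in the others. Their C1qa went the other way, with a mean of 2938 CPM in replicates 2 and 3 and 4950 in the others. Its ranges overlapped, at 1960 to 3988 and 3907 to 5435 CPM.

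**Figure D3:**
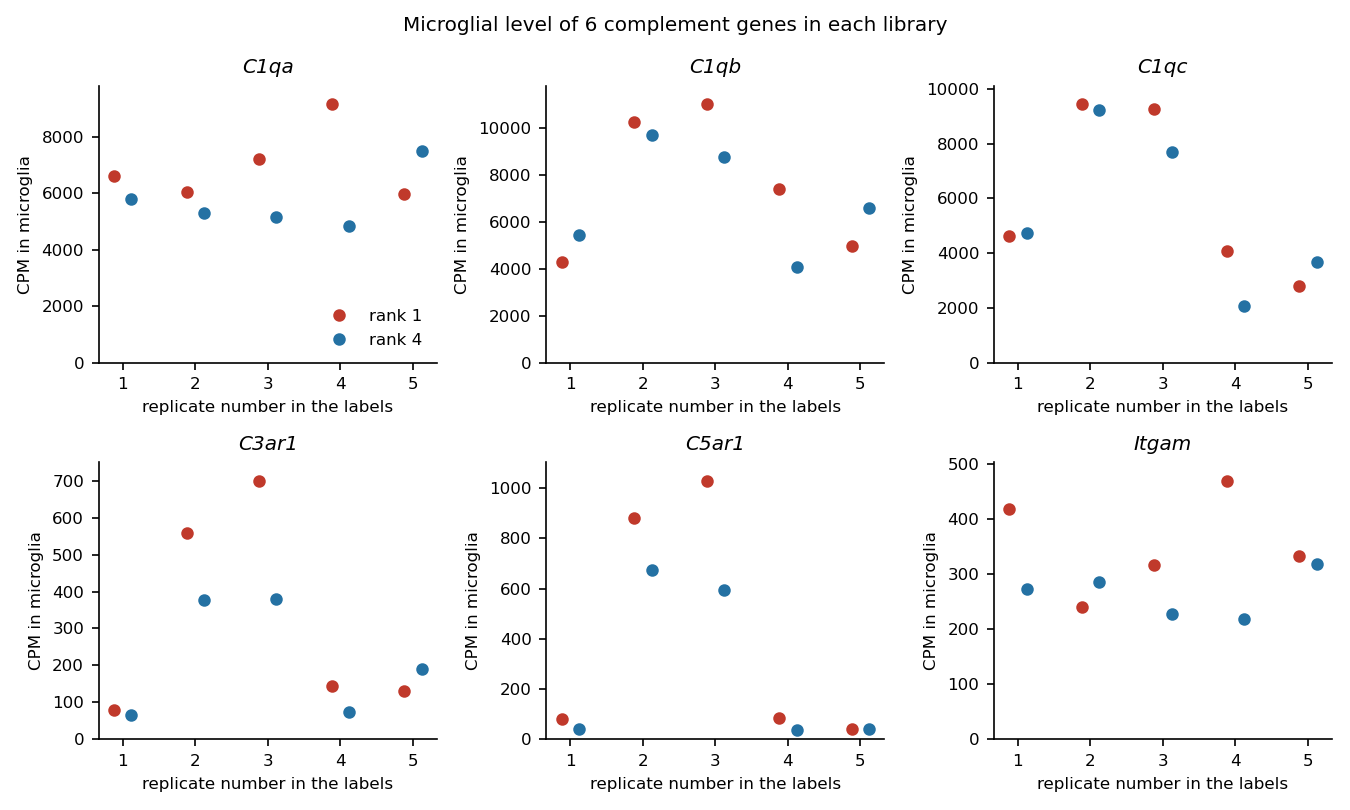
Microglial level in CPM (vertical, from 0) of 6 genes in each library against the replicate number in the labels (horizontal), red for rank 1 and blue for rank 4. C5ar1, C3ar1, C1qb and C1qc are higher in replicates 2 and 3 of both ranks, without overlap with the other 6 libraries, whereas C1qa and Itgam overlap.

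Within libraries, microglia that carried a UMI of Ccl3 or Ccl4 also carried more of the 2 peptide receptors. There were 1548 such cells and 2054 without, and the share with one ranged from 8.49% to 89.5% over libraries; 8 libraries had at least 20 cells of both kinds. C5ar1 averaged 231.6 ± 285 CPM in cells with a Ccl3 or Ccl4 UMI and 82.9 ± 86.5 without, and was higher with it in 7 of 8 libraries. C3ar1 averaged 205 ± 137 against 124.3 ± 63.3, also higher in 7 of 8. The log2 differences were 1.31 for C5ar1 (adjusted p = 2.0e-06) and 0.79 for C3ar1 (adjusted p = 0.0010), where 5.46% of 4839 genes passed, 243 (5.02%) higher and 21 lower. Scaled by total UMIs, 118 genes were higher and 80 lower, with a median of all genes of -0.14.

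C1qa (-0.0026, SE 0.119), C1qb (0.21), C1qc (0.20) and Itgam (0.26) did not pass in the same fit, nor did any of the 11 other complement genes tested. C1qa was higher with a Ccl3 or Ccl4 UMI in 1 of 8 libraries, at 6080 ± 1658 CPM with and 6835 ± 1273 without, C1qb in 5, C1qc in 4 and Itgam in 6. Cells with a Ccl3 or Ccl4 UMI had the higher median UMI count in 6 of the 8 libraries in the fit, all but rank 1 replicates 4 and 5. In cells of 1000 to 3000 UMIs C5ar1 differed by 1.00 (adjusted p = 0.085). With a stricter cell filter the difference was 0.52 for C5ar1 (adjusted p = 0.91) and 0.31 for C3ar1 (adjusted p = 0.96), and C3ar1 also lost its call without rank 4 replicate 5 (0.64, adjusted p = 0.089).

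Among astrocytes, those with a UMI of Gfap, the filament protein raised in reactive astrocytes, carried more C4b. A Gfap UMI was found in 431 of 9033 astrocytes, and 7 libraries had at least 20 cells with one. C4b averaged 42.9 ± 40.3 CPM in cells with Gfap (52 UMIs) and 15.7 ± 5.84 without (207 UMIs). It was higher with Gfap in 5 of 7 libraries, by 1.72 on the log2 scale (SE 0.289, adjusted p = 1.8e-06; 0.865% of 8787 genes passed). Of the 52 UMIs, 30 came from rank 1 replicate 5, and without that library the difference was 1.3 and did not pass (adjusted p = 0.17). Of 10 other complement genes tested, Vtn (vitronectin, an inhibitor of the terminal complex) also passed, at 1.37 (SE 0.209). Vtn was highest in pericytes, 13697 CPM against 30.8 in astrocytes. The 7 pericyte markers summed to 0 to 278.0 CPM in astrocytes with Gfap and 46.4 to 75.7 CPM without, higher with it in 4 of 7 libraries, and their part in this difference was not tested. Cells with Gfap had the higher median UMI count in 7 of the 7 libraries in the fit, and in cells of 1000 to 3000 UMIs the difference was 1.70 (adjusted p = 0.031).

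**Figure D4:**
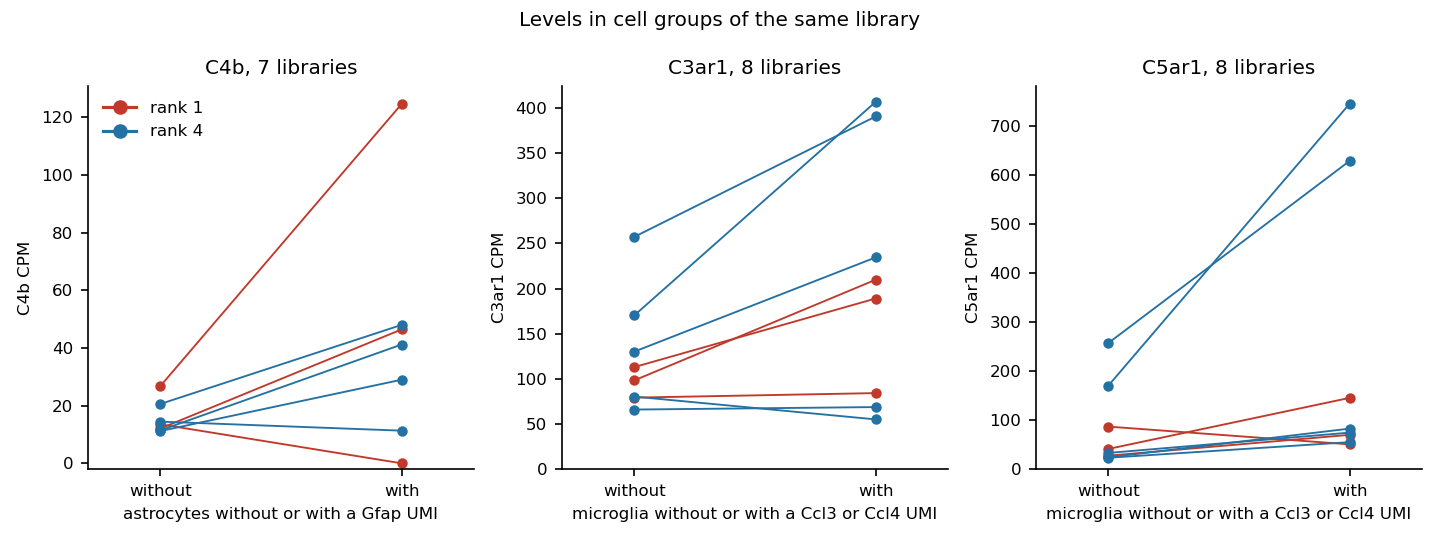
CPM (vertical) of C4b in astrocytes without and with a Gfap UMI (left, 7 libraries) and of C3ar1 and C5ar1 in microglia without and with a Ccl3 or Ccl4 UMI (middle and right, 8 libraries); lines join the groups of 1 library, red for rank 1 and blue for rank 4. C4b was higher with Gfap in 5 of 7 libraries, and C3ar1 and C5ar1 were higher with Ccl3 or Ccl4 in 7 of 8.

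The comparison for which the libraries were made, rank 1 against rank 4, gave no member a passing difference. A member could be tested in 30 combinations of gene and class, and 0 passed in edgeR, with the software version that wrote the matrix as a covariate. None had an unadjusted p under 0.05, the smallest being 0.0505, and DESeq2 likewise gave 0 of 29 passing and 0 unadjusted. No gene of any kind passed in the 9 classes tested (0% in each), microglia and astrocytes included, where 147 and 220 genes had an unadjusted p under 0.05. DESeq2 also gave 0 in these 2 classes, with 164 and 147 genes unadjusted. With the replicate number as a block, 0 of the 30 passed and 3 had an unadjusted p under 0.05: C1qb in excitatory neurons (-0.46), C4b in astrocytes (0.60) and C5ar1 in microglia (0.61, adjusted p = 0.46). That block gave 3 passing genes in microglia (0.0394%) and 96 in astrocytes (0.82%).

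In microglia the differences, rank 1 minus rank 4 on the log2 scale, were 0.31 (SE 0.312) for C1qa, 0.18 (SE 0.408) for C1qb and 0.19 (SE 0.392) for C1qc. They were 0.46 (SE 0.617) for C3ar1, 0.62 (SE 0.745) for C5ar1 and 0.41 (SE 0.251) for Itgam, and the ranks overlapped for each of the 6. Rank 1 was the higher of the same-numbered pair in 4 of 5 pairs for C1qa, C3ar1, C5ar1 and Itgam and in 3 of 5 for C1qb and C1qc. The sign for C3ar1 turned without replicates 2 and 3 of both ranks (-0.013) and within replicates 4 and 5 (-0.095). C4b in astrocytes was at 14.5, 12.7, 24.9, 26.9 and 36.9 CPM in replicates 1 to 5 of rank 1 and at 12.3, 18.2, 12.9, 21.8 and 14.3 CPM in rank 4. The ranks overlapped, rank 1 was higher in 4 of 5 pairs, and the difference was 0.53 (SE 0.249, unadjusted p = 0.0505), or 0.26 within replicates 1 to 3 and 0.91 within 4 and 5.

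Of 12 other complement genes tested in microglia 0 passed, with a median difference of 0.42 beside -0.01 over all genes, and of 15 in astrocytes 0 passed, with a median of -0.20 beside -0.02. In perivascular macrophages, with 3 libraries of rank 1 and 5 of rank 4, an exact two-sided permutation test of the mean log2(CPM + 10) gave p from 0.161 to 1 over the 8 genes, where the smallest possible is 0.0179. Fibroblasts, with 2 and 4 libraries, gave p from 0.60 to 1 and could not go below 0.0667. A difference that misses the threshold is not thereby shown to be 0.

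**Figure D5:**
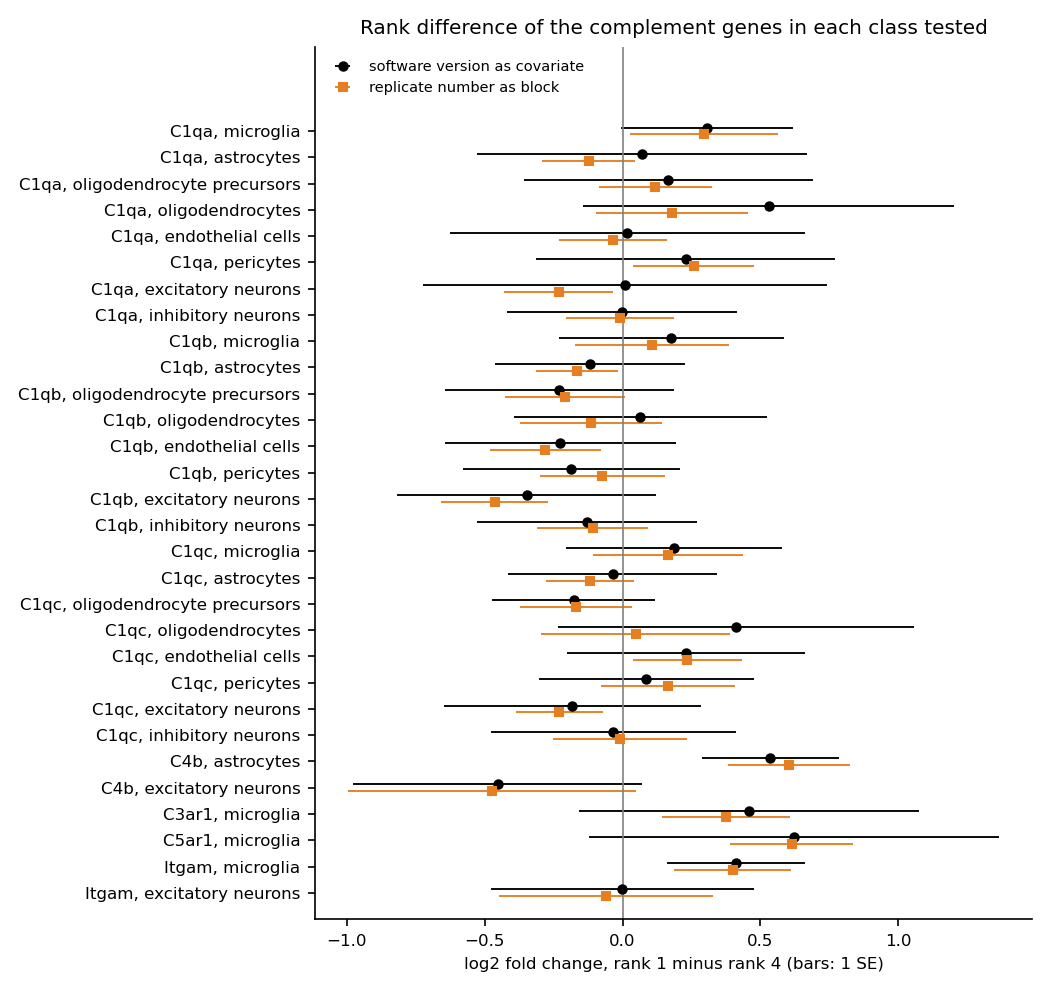
Log2 fold change of rank 1 minus rank 4 (horizontal, bars are 1 SE) for the 30 combinations of gene and class (vertical), with the software version as covariate (black) and with the replicate number as a block (orange). Values lie on both sides of 0, and 0 of the 30 passed in either fit.

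Over the 12 classes, the genes whose mean log2(CPM + 10) was most like that of each member, out of 8354 genes with at least 50 CPM in a class, were found for 7 of the 8 members. C3 averaged under 50 CPM in every class and was given none. C1qa, C1qb and C1qc were nearest to Csf1r, the receptor for the growth factor on which microglia depend (r = 0.998, 0.997 and 0.997). C3ar1 was nearest to Adgre1, which encodes F4/80 (r = 0.998), C5ar1 to Lrrc25 (r = 0.998) and Itgam to Ccl6 (r = 0.997). The next were Fermt3 and Ptpn6 for C1qa, Hcls1 and Ptpn6 for C1qb, Ccl3 and Cd74 for C1qc, Lrrc25 and Ccl12 for C3ar1, Clec4a3 and Ccl12 for C5ar1, and Tnfrsf13b and Cx3cr1 for Itgam. For C4b the nearest were Pdcd2l (r = 0.887), Wwp1 (r = 0.871) and Cfp (r = 0.871). These correlations are over 12 class means from shared libraries and are a description.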

How the data were processed

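Counts of UMIs per gene and cell were deposited by the authors as 10 matrices, 1 per library. The submitters' processing notes name Cell Ranger 4.0.0 and mm10, whereas per the file headers version 3.1.0 wrote replicates 1 to 3 and version 4.0.0 replicates 4 and 5, with differing gene lists. Analyses used the 30406 shared genes, which held 99.4% to 99.9% of the UMIs of each library, so C4a and Gm49368 were counted separately.

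Barcodes with at least 500 genes and at most 15% mitochondrial UMIs were kept, after 3915 barcodes were called doublets with Scrublet in scanpy 1.11.5. In rank 1 replicate 1 the caller's own threshold marked too few barcodes and the median threshold of the other libraries, 0.238, was used. Cells were clustered (2000 variable genes without complement genes, 30 components, 15 neighbours, leidenalg 0.10.2 at resolution 1) and named from marker lists. Each variable gene was centred and scaled within its library before the components were taken. A cluster of 2839 cells led by neuronal genes and one of 1447 cells stayed unnamed.

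UMIs were summed per library and class and tested with edgeR 4.0.16 (quasi-likelihood, TMM, filterByExpr, Benjamini-Hochberg adjustment at 0.05) in R 4.3.3, or DESeq2 1.42.0 as an alternative. Rank fits had the software version as covariate, comparisons of classes or cell groups the library. Exact permutation tests used scipy 1.17.1. The count scripts were tested on simulated data. Shares of cells have exact binomial intervals, which cover counting error only. Cells were thinned to 1000 UMIs for a second share.

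The labels call the libraries independent pooled biological replicates. In microglia, deviations of same-numbered libraries from their rank means correlated at 0.584 to 0.765 over 5569 genes. In every class they correlated at 0.394 or more. The number served to count same-numbered pairs and as a block in an alternative rank fit. The main rank fit had no such block and did not pair the libraries. Not every library was nearest to its own number: in microglia this held for 3 of 5 numbers, and for replicates 2 and 5 the highest correlation with another number was 0.724 (own 0.664) and 0.799 (own 0.753). The pairing comes from the data, since the labels do not say what a number shares. Named genes were the 8 members, other complement genes with adjusted p under 0.05 (at most 10 per comparison), and the 3 genes most like each member over classes. Other complement genes are named for perivascular macrophages against microglia, the cell groups and the replicate numbers, not for the other class comparisons. Those in the closing section, Cr1l, Csmd3 and Cd59a included, were chosen after their values were seen. Members and lists were chosen with earlier results of these data known. Alternatives were scaling by total UMIs, DESeq2, no low-count filter, a stricter cell filter (1000 genes, 10% mitochondrial UMIs), doublets kept, other clustering, a depth window, the replicate block and leaving out libraries.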

Additional observations from a re-analysis of the deposited data

Results flagged for a closer look

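In excitatory neurons the C1qc level of rank 1 replicate 1, 80.8 CPM, stood apart from the other 4 rank 1 libraries, with a gap to the next of 0.757 of the whole range. The same held in rank 4, where replicate 1 was at 71.9 CPM with a gap of 0.738 of the range. These were 2 of 27 groups of libraries checked for a sample that stands apart, and chance flags about 1 in 20 groups. Replicate 1 also had the highest neuronal C1qa in each rank, 138.0 and 90.7 CPM. Their cause was not tested.

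C4a is in the gene list of 4 libraries and was outside the comparisons. It gave 74 UMIs in kept cells, of which 56 were in excitatory neurons, where C4b gave 2 UMIs in the same libraries.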

How the results depend on the processing

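Rank: 0 of 30 combinations of member and class passed under any alternative run. Genes passing in microglia numbered 0, and 3 with no low-count filter, 2 with 3 library sets as covariate and 4 without replicates 2 and 3. Genes passing in astrocytes numbered 0, and 6 with no filter, 1 with the library sets and 1 within replicates 4 and 5. Leaving out single libraries gave 0 in both. With the replicate number as a block the counts were 3 and 96, and the block gave no member a call. C3ar1 in microglia turned to -0.013 without replicates 2 and 3 and -0.095 within replicates 4 and 5.

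Gfap groups: 76 genes passed, 44 in DESeq2 (of 1803 with an adjusted p), 9 in cells of 1000 to 3000 UMIs, and 32 to 69 when leaving out a library. C4b ranged from 1.3 to 1.85 when leaving out a library; it was 1.3 (adjusted p = 0.17) without rank 1 replicate 5, and the same without rank 1 replicates 3 and 5, since replicate 3 is not in that fit.

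Ccl3 or Ccl4 groups: 264 genes passed, 140 in DESeq2, 160 with no filter, 82 in cells of 1000 to 3000 UMIs, 17 with the stricter cell filter, 132 without replicates 2 and 3, 117 in those replicates alone, and 111 to 323 when leaving out a library (111 without rank 4 replicate 5). C5ar1 lost its call in cells of 1000 to 3000 UMIs (1.00) and with the stricter filter (0.52). C3ar1 lost it with the stricter filter (0.31), in replicates 2 and 3 alone (0.89) and without rank 4 replicate 5 (0.64), and ranged from 0.64 to 0.87 when leaving out a library. Differences near 0 changed sign: C1qa 0.032 with no filter, 0.051 with the stricter filter and -0.10 to 0.10 when leaving out a library (0.03 without rank 1 replicate 4 or rank 4 replicate 3, 0.10 without rank 4 replicate 4); C1qb -0.12 in replicates 2 and 3 alone; C1qc -0.011 with total UMIs and -0.0036 in replicates 2 and 3 alone.

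Perivascular macrophages minus microglia: 2910 genes passed, 579 with total UMIs, 1263 in DESeq2 and 231 with the stricter filter. C3ar1 turned to 0.60, 0.62 and 0.26 under those settings, and passed at -0.91 (adjusted p = 0.018) without rank 1 replicate 2. C5ar1 passed at 0.90 (adjusted p = 0.0050) without rank 1 replicate 3. Among replicate numbers, 1412 genes passed with the stricter filter against 3651, and C1qb did not (adjusted p = 0.24). The cause of these changes was not tested. The alternatives added after seeing the data are the library sets, total UMIs, the subsets of replicates 2 and 3, and the tests among replicate numbers.

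Depth limits C3 throughout and C4b outside astrocytes. Libraries pool mice, so spread between animals was not measured. Rank comparisons of perivascular macrophages rest on 3 against 5 libraries.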

Other observations

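The other genes of the pathway were spread over the vessel wall and astrocytes. Of 59 complement genes listed, 58 are in both gene lists. Clu, the secreted chaperone clusterin that restrains the terminal complex, averaged 3916 ± 999 CPM in astrocytes (n = 10). Vtn, vitronectin, averaged 13697 ± 2324 CPM in pericytes (n = 10) and 4890.2 in fibroblasts. Serping1, the inhibitor of the C1 proteases, averaged 373 ± 133 CPM in fibroblasts (n = 6) and 237.1 in smooth muscle cells, and the protease gene C1s1 103.1 ± 71.0 CPM in smooth muscle cells (n = 8). Cd93 averaged 273 ± 76.0 CPM in endothelial cells (n = 10). C5ar2, the second C5a receptor, averaged 80.7 CPM in perivascular macrophages and 40.6 in microglia.

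Of complement genes other than the members, those with an unadjusted p under 0.05 between ranks were Cr1l in microglia (0.81) and oligodendrocytes (0.75), Csmd3 in oligodendrocyte precursors (0.49) and Cd59a in excitatory neurons (-0.45), each as rank 1 minus rank 4 on the log2 scale. None passed after adjustment (edgeR, adjusted p of 0.9995 or above).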
